A study of Mus musculus with 27 samples.

Results

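The 3 widest regions that were decreased for both H3K4me1 and H3K4me2 in *Kmt2d* mutant hearts lay at *Mical2*, *Shb* and *Unc5b*, and they are mapped here onto the genes. A merged list of 358833 regions with H3K4me1, H3K4me2 or H3K4me3 in the mouse heart was searched for regions that overlapped the body of *Mical2*, *Shb* or *Unc5b*, or lay within 50 kb of one of their transcription start sites (TSS). This gave 81 regions, 39 at *Mical2*, 21 at *Shb* and 21 at *Unc5b*, and 3 of them, 1 per gene, were present with identical coordinates in both decreased lists. These 3 domains were selected on their width and on their place in both lists, so neither property is a result here. The same search at the paralogues *Mical1*, *Mical3* and *Unc5a* gave 107 regions. These 3 genes were taken as paralogues, and the choice was made with earlier results of these data known.

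Chromatin was prepared from E11.5 (embryonic day) hearts of C57BL/6 mice. Control hearts were *Tnnt2::Cre;Kmt2d fl/+* and mutant hearts *Tnnt2::Cre;Kmt2d fl/fl*, and both also carried the mTmG reporter (mTmG/+). Controls therefore kept 1 unfloxed copy of *Kmt2d* and mutants none, and the *Tnnt2* promoter drives Cre in heart muscle cells, so that other cell types of the whole hearts keep *Kmt2d*. Each genotype had 3 pools of 30 hearts, and input libraries and chromatin immunoprecipitation (ChIP-Seq) libraries of H3K4me1, H3K4me2 and H3K4me3 were made from them. It is not stated whether libraries with the same number come from the same pool. Of 27 libraries in 9 groups of 3, 24 came from hearts, and the 3 KMT2D ChIP-Exo libraries of cultured cardiomyocytes were not used here. The lists hold coordinates and no read counts, so the depth behind a region is unknown, a decrease is the authors' call over the 3 pools per genotype, and its size and the spread between pools cannot be given. A call applies to a whole merged region, which can join peaks of any of the 3 marks. It does not show that each mark, or its loss, spans that region. In whole hearts, fewer cells that carry a mark and less mark per cell cannot be told apart.

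KMT2D is a methyltransferase that places H3K4me1 and H3K4me2 at enhancers and promoters, and broad stretches of H3K4 methylation that run from a promoter into the gene are often found at genes that matter for the identity of a cell. MICAL proteins are flavin monooxygenases that oxidise actin and take filaments apart, and nuclear MICAL2 thereby promotes transcription by SRF and its cofactor MRTF-A, which drives cytoskeletal and muscle genes. SHB is an adaptor with an SH2 domain that couples receptor tyrosine kinases, among them the VEGF receptor KDR and the PDGF receptors, to downstream signalling. UNC5B is a receptor of netrins and FLRT proteins that guides growing axons and vessels and is prominent in endothelium.

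The sequences directly upstream of the transcripts that start in the domains show the promoters that the domains enclose. The 250 bases before the most upstream protein-coding TSS of each gene (GENCODE vM1, mm9) are printed 5′ to 3′ on the strand of the gene. The *Mical2* promoter is chr7:119369120-119369369, plus strand. The *Shb* promoter is chr4:45545343-45545592, minus strand. The *Unc5b* promoter is chr10:60294330-60294579, minus strand. Since *Shb* has several starts, the 250 bases before its protein-coding start 1642 bp further downstream, chr4:45543701-45543950, minus strand, are also shown, a choice made after the base composition was seen. *Unc5a*, chr13:55050522-55050771, plus strand, is the comparison outside any decreased region. No annotated exon overlapped any of the 5 stretches. Capitals mark GGGCGG, the core of the GC box bound by SP factors, or CACGTG, the palindromic E-box, on either strand.
Mical2: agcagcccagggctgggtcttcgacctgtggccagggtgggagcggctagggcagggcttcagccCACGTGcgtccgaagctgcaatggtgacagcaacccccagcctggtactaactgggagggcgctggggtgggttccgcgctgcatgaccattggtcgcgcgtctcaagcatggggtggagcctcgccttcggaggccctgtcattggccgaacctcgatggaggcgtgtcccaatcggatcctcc
Shb: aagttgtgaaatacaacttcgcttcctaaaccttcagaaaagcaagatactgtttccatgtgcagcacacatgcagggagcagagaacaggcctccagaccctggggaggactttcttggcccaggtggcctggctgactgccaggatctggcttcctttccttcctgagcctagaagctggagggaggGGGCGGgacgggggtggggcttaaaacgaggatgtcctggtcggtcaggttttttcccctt
Shb, downstream start: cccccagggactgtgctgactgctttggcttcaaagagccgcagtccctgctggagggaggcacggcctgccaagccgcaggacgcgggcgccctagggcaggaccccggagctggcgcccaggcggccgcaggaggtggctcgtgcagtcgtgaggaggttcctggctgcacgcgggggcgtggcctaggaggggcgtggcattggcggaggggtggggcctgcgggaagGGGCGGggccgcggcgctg
Unc5b: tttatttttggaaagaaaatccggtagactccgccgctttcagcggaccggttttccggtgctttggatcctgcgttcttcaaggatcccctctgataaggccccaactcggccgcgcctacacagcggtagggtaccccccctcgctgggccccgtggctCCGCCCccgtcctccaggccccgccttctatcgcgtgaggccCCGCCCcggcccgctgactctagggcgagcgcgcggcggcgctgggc
Unc5a: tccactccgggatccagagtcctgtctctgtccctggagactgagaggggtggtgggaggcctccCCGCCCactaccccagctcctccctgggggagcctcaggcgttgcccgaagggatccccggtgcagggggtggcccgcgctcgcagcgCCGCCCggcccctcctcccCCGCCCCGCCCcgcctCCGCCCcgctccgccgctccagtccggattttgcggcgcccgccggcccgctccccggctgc

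Beside GGGCGG and the E-box CACGTG, 5 further motifs were searched on both strands. They were the core of the hypoxia response element, ACGTG, which lies inside CACGTG on each strand, the TEAD motif CATTCC, the GATA motif AGATAA, the TATA box TATAAA and the CArG box bound by SRF. The *Mical2* promoter held CACGTG once and none of the others outside it. The most upstream *Shb* promoter held 1 GGGCGG, the *Unc5b* promoter held 2 and the *Unc5a* promoter held 5, of which a pair overlapped. Among 22367 protein-coding promoters of the same length, 40.1% held GGGCGG, 6.53% CACGTG, 17.4% ACGTG, 11.4% CATTCC, 9.30% AGATAA, 12.3% TATAAA and 1.33% a CArG box. The *Mical1* and *Mical3* promoters each held 1 GGGCGG and no other motif. The CArG box was in none of the 6 promoters, which says only that these letters are not in these windows.

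The *Mical2* promoter had 66.0% GC and 17 CpG dinucleotides, the *Unc5b* promoter 66.8% and 27, and the *Unc5a* promoter 76.8% and 25. The most upstream *Shb* promoter was poorer, with 55.2% GC and 5 CpG, whereas the stretch before its downstream start had 74.4% GC and 22 CpG. Promoters rich in CpG thus stood both inside the domains and at *Unc5a*, which had no decreased region. RefSeq promoter sequences (a table on GRCm38.p6) were matched letter by letter to mm9, with 1 exact match each. The RefSeq start of *Shb* fell on the downstream, CpG-rich start, that of *Unc5b* on the same base as in GENCODE and that of *Mical2* at a distance of 20 bp.

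*Mical2* (ENSMUSG00000038244.6) spans chr7:119369370-119498708 on the plus strand, and its domain, chr7:119365326-119435325, was 70000 bp wide. The domain began 4044 bp before the most upstream TSS and ran 66.0 kb into the gene, so that 94.2% of it lay over the gene body and it held 51.0% of that body. It took in exons 1 to 3 of the 20 exons of transcript ENSMUST00000050149.5, the whole of intron 1 (9325 bp) and of intron 2 (35810 bp), and 63.2% of intron 3. In bases it was 93.4% intronic and 0.827% exonic, that is 579 bp of exon, and the rest lay upstream of the gene. It held 3 TSS positions, all protein-coding, and 5 of the 7 annotated transcripts started in it. A pair of these positions lay 34 bp apart at the 5′ end, and the other lay 45.4 kb downstream, at the beginning of ENSMUST00000037991.5. The domain thus enclosed the upstream promoter and an annotated start inside the gene, which lies in exon 3 of ENSMUST00000050149.5. Whether a promoter is active there was not tested.

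Beyond the *Mical2* domain the gene was still covered, but by regions in neither decreased list. A region of 21780 bp followed after a gap of 620 bp, the smallest in the merged list, and with the smaller ones brought the covered share of the body to 84.8%. On the upstream side the next region, of 1440 bp, lay 1680 bp away. None of the other 38 regions of the locus was in either decreased list. The 3′ edge of the domain was therefore a boundary in intron 3 between a listed and an unlisted region, and not the end of H3K4 methylation in the gene.

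*Shb* (ENSMUSG00000044813.8) spans chr4:45436150-45545342 on the minus strand, and its domain, chr4:45477146-45546005, was 68860 bp wide. It began only 663 bp before the most upstream TSS and ran 68.2 kb into the gene, with 99.0% of its width over the body and 62.5% of the body inside it. All 7 annotated transcripts started in the domain, each at its own position, 4 of them protein-coding. The coding starts lay at 0, 1642 and 2140 bp from the most upstream one and then, inside the gene, at 42.7 kb. For ENSMUST00000061986.5, which has 6 exons, exons 1 and 2 and the whole of intron 1 (40386 bp) were inside, as was 80.7% of intron 2. The domain was 95.6% intronic and 3.40% exonic (2343 bp), the largest exonic share of the 3 domains. A start of AL772376.1, annotated as a miRNA gene, also lay in it.

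*Shb* was the most completely covered of the 6 genes, with 90.2% of its body in merged regions. Regions of the H3K4me1 list took up 74.6% of the body and regions of the H3K4me2 list 62.5%. The difference came from a second decreased region, chr4:45447886-45461165, of 13280 bp, which was in the H3K4me1 list only, lay in the 3′ part of the gene and held 404 bp of exon. Between it and the domain, the nearest region to the domain was 6860 bp wide, 680 bp away and in neither list. On the upstream side the next region, 1360 bp away, was 60 bp wide, the narrowest width in the list.

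*Unc5b* (ENSMUSG00000020099.6) spans chr10:60225358-60294329 on the minus strand, and its domain, chr10:60254286-60296345, was 42060 bp wide. It began 2016 bp before the single annotated TSS position, from which both annotated transcripts start, and ran 40.0 kb downstream. It held exon 1 of the 16 exons of ENSMUST00000105458.1 and 82.7% of intron 1, which is 47804 bp long, and it ended inside that intron. The domain was 94.0% intronic and 1.18% exonic (495 bp), of which 79 bp were coding, and it held 58.1% of the gene body. All exons after the first lay outside it.

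A second decreased region, chr10:60249386-60252665, of 3280 bp, followed 1620 bp downstream, also in intron 1, and was in the H3K4me1 list only. With it, 89.6% of the first intron of *Unc5b* lay in regions of the H3K4me1 list against 82.7% in regions of the H3K4me2 list. Such shares measure listed regions, and how far the loss extends within them is unknown. In the whole body the shares were 62.8% and 58.1%, and 70.4% was in a merged region of any kind. *Shb* and *Unc5b* therefore each had a further H3K4me1 region downstream of the domain within the gene, and *Mical2* had none. No region within the 3 loci was in the H3K4me2 list alone.

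**Figure D1:**
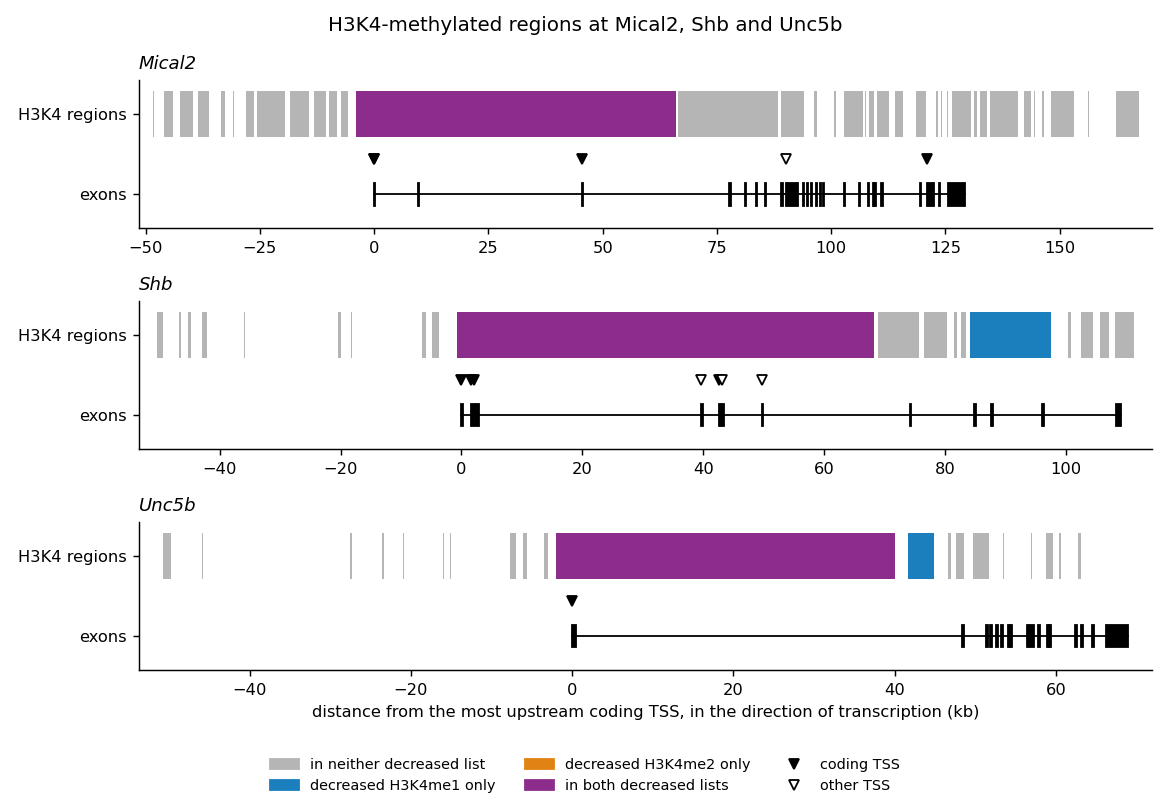
Merged regions (upper row of each panel, coloured by decreased list) and exons (black boxes) around *Mical2*, *Shb* and *Unc5b*, against distance in kb from the most upstream protein-coding TSS in the direction of transcription. Triangles mark TSS, filled for coding transcripts. Each purple domain starts at most 4044 bp before the first TSS and reaches 40.0 to 68.2 kb into the gene, and blue regions, decreased for H3K4me1 only, follow it at *Shb* and *Unc5b*.

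Beside the properties they were selected on, the 3 domains shared their placement. Each overlapped 1 protein-coding gene, enclosed its most upstream TSS, extended almost wholly in the direction of transcription and ended in an intron, 28.9 to 63.4 kb before the 3′ end of the gene. The shares of the domains downstream of the first TSS were 94.2%, 99.0% and 95.2% for *Mical2*, *Shb* and *Unc5b*. Of all 227 merged regions of at least 20 kb, 169 (74.4%) held a protein-coding TSS. In the 146 of these with the TSS of a single coding gene, the share downstream had a median of 85.8% (quartiles 65.9% and 92.8%), with a median of 3.76 kb upstream and 20.3 kb downstream. The domains lay above the upper quartile of the downstream share, while their upstream arms of 4.04, 0.663 and 2.02 kb were near or below the median. The downstream share was higher in wider regions, since in the 1508 such regions of at least 8 kb its median was 78.3%. The domains were selected on width and are wider than most regions of at least 20 kb, so their high share is not separate from that choice.

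By width, which was used to choose them, the domains at *Mical2* and *Shb* ranked 1 and 2 in the merged list and in each decreased list. The *Unc5b* domain ranked 11 in the merged list, 3 in the H3K4me1 list and 7 in the H3K4me2 list. The median merged region was 320 bp wide (quartiles 100 and 900 bp). The other 3 of the 5 widest merged regions lay at *Zfpm1*, a cofactor of GATA proteins (chr8, 60640 bp, H3K4me2 list), *Zmiz1*, a transcriptional coregulator (chr14, 59160 bp, neither list), and *Gata4*, a transcription factor required in the heart (chr14, 48800 bp, H3K4me2 list). Just outside the choice, the region ranked 5 among those in both lists was at *Ahdc1* (chr4:132590126-132617365, 27240 bp).

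**Figure D2:**
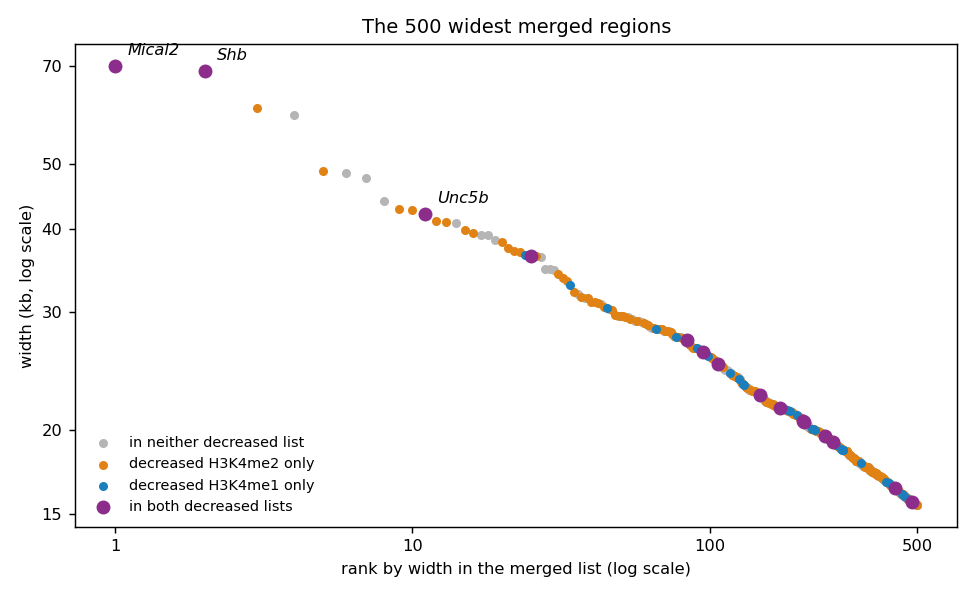
Width in kb of the 500 widest merged regions against their rank, both on log scales, with each point a region coloured by the decreased list it belongs to. *Mical2* and *Shb* hold ranks 1 and 2 and *Unc5b* rank 11, and of the 11 regions at least as wide as the *Unc5b* domain 4 were in neither list.

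Placement in both lists was rare. Over all merged regions, 0.761% were in the H3K4me1 list, 1.87% in the H3K4me2 list and 0.0479% (172 regions) in both. The median of those 172 was 140 bp wide, so the domains were not typical of them. Wide regions were listed more often, with 5.78%, 27.1% and 0.657% of the 3045 regions of at least 8 kb in the H3K4me1 list, the H3K4me2 list and both. The domains are far wider than 8 kb, and listing was more frequent still among wider regions. Of the 227 regions of at least 20 kb, the domains included, 32, 109 and 11 were in the H3K4me1 list, the H3K4me2 list and both. Of the 11 at least as wide as the *Unc5b* domain, the counts were 3, 7 and 3. In the loci of *Mical2*, *Shb* and *Unc5b*, 5 of 81 regions were in the H3K4me1 list, 3 in the H3K4me2 list and 3 in both, counts that the choice of genes fixed in large part. Across 22380 protein-coding gene records searched in the same way, 15.2% had a region of the H3K4me1 list, 46.9% one of the H3K4me2 list and 1.15% one in both. An H3K4me2 call somewhere near a gene was thus common, and a call in both lists was not.

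The paralogues had no region in both lists. Of the 107 regions in their loci, 2 were in the H3K4me1 list and 5 in the H3K4me2 list, and 100 were in neither. *Mical1* (ENSMUSG00000019823.11, chr10:41196120-41206838, plus strand) is a short gene of 10.7 kb. Its 20 regions included 2 in the H3K4me2 list. One of them, chr10:41191906-41199065, of 7160 bp, covered its most upstream TSS, and the other, chr10:41237546-41242705, of 5160 bp, lay at the TSS of *Cd164*. No region there was in the H3K4me1 list. Of the *Mical1* body, 56.9% was covered and 27.5% was under the H3K4me2 region, which also held the RefSeq start.

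*Mical3* (chr6:120881725-121031627, minus strand), with 150 kb the longest of the 6 and annotated in 2 gene records that were joined here, had 57 regions. The H3K4me1 list held 2 of them, both in the 5′ part of the gene. One, chr6:121025966-121032425, of 6460 bp, covered the most upstream TSS, and the other, chr6:120998906-121008945, of 10040 bp, lay in intron 1. The H3K4me2 list held 3 that lay outside the body. Of these, chr6:121079406-121081565, of 2160 bp, enclosed a RefSeq start of *Mical3* that lies 49413 bp upstream of the GENCODE one and is not a start of the gene in GENCODE vM1. The second, chr6:121054946-121063885, of 8940 bp, lay between those starts, and the third, chr6:120864586-120867845, of 3260 bp, at the TSS of *Bid*. The marks at *Mical3* were therefore listed in separate regions, whereas at *Mical2* a single region was in both lists.

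*Unc5a* (ENSMUSG00000025876.9, chr13:55050772-55107379, plus strand) encodes a netrin receptor found mainly in neurons. It had 30 regions and none in either list. The widest was 3200 bp, and the region over its TSS, chr13:55049946-55052265, was 2320 bp wide. Only 21.3% of the body was covered, against 70.4% at *Unc5b*, although the bodies span 56.6 kb and 69.0 kb.

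**Figure D3:**
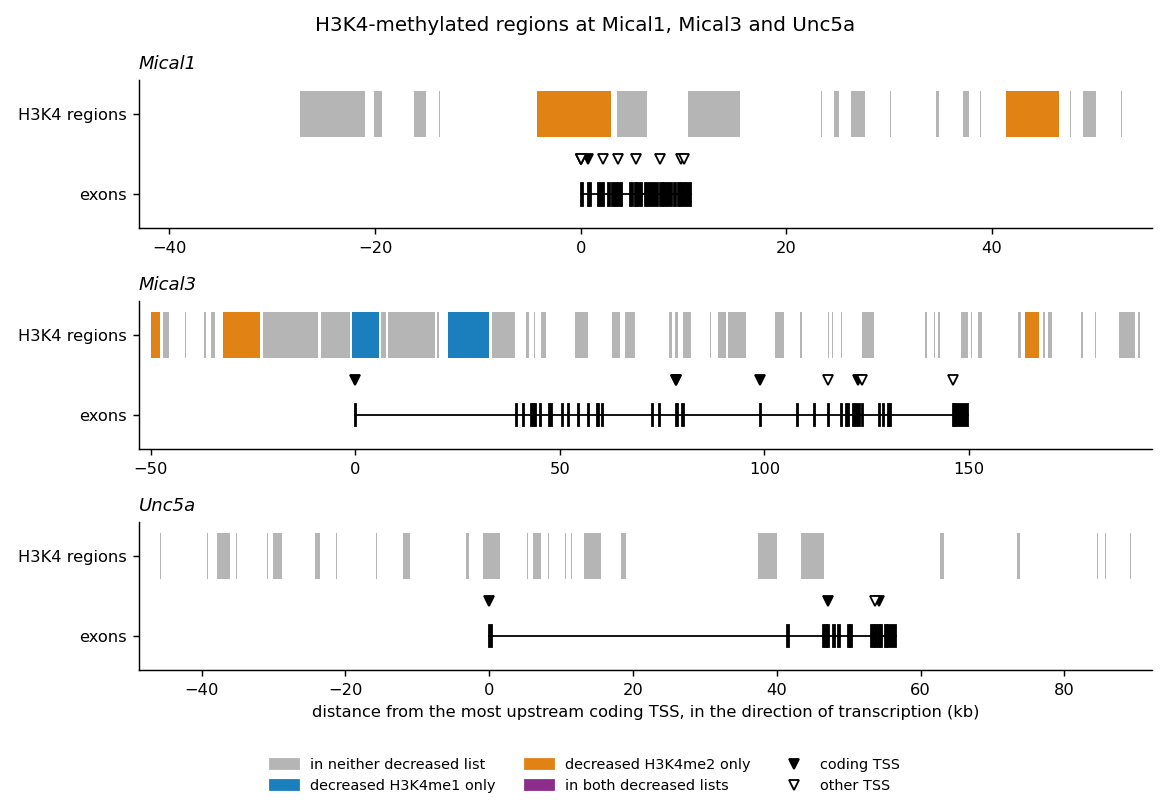
Merged regions and exons around *Mical1*, *Mical3* and *Unc5a*, drawn as for the 3 genes with wide domains. Decreased regions are in 1 list only (orange for H3K4me2, blue for H3K4me1), 2 at *Mical1*, 5 at *Mical3* and none at *Unc5a*.

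Covered shares put the 6 genes in the order *Shb* (90.2%), *Mical2* (84.8%), *Unc5b* (70.4%), *Mical1* (56.9%), *Mical3* (42.0%) and *Unc5a* (21.3%). The median over all protein-coding records was 17.1% (quartiles 3.93% and 38.0%), and over the 4841 records of at least 50 kb it was 15.3% (quartiles 7.10% and 28.7%). All 6 genes were thus above the median, and *Unc5a* was below the upper quartile of long genes. For the 3 genes with domains this follows in part from the choice of wide regions. All shares are of GENCODE vM1 bodies. A *Mical3* body drawn from its upstream RefSeq start would also hold the H3K4me2-listed region of 8940 bp.

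**Figure D4:**
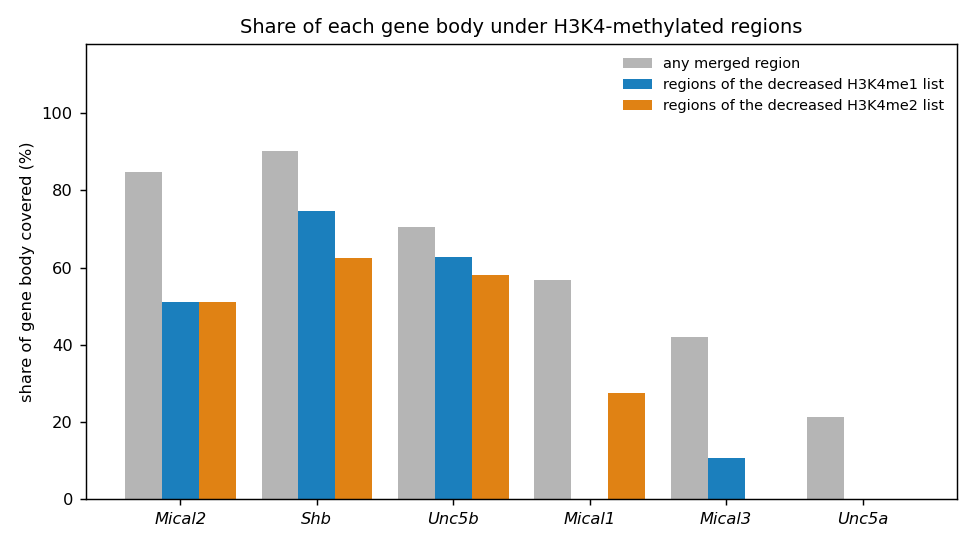
Share of each gene body (%) under any merged region (grey), under regions of the decreased H3K4me1 list (blue) and of the decreased H3K4me2 list (orange). The listed shares are 51.0 to 74.6% at *Mical2*, *Shb* and *Unc5b*, and at most 10.5% for H3K4me1 and 27.5% for H3K4me2 at the paralogues. Bodies are those of GENCODE vM1.

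The first introns were 9.32 kb in *Mical2*, 40.4 kb in *Shb* and 47.8 kb in *Unc5b*, and of their length 100%, 100% and 91.7% was in merged regions. The first introns of *Mical3* (39.1 kb) and *Unc5a* (41.1 kb) were of similar length to those of *Shb* and *Unc5b*, and 86.6% and 20.6% of them was covered. In *Mical3*, 39.7% of intron 1 of the GENCODE transcript was in regions of the H3K4me1 list and none in the H3K4me2 list. In *Unc5a* none was in either. The first intron of *Mical1*, 1.47 kb long, lay wholly in its H3K4me2 region. A long first intron was therefore present at 4 of the 6 genes. It was in regions of both lists at *Shb* and *Unc5b*, which follows from the choice of their domains.

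By base composition the domains were unlike each other. The *Mical2* domain had 48.4% GC and 10.3 CpG per kb, a CpG density above only 13.7% of the 3045 regions of at least 8 kb. The *Shb* domain had 51.2% GC and 16.1 CpG per kb, close to the median of 16.2 of these wide regions (quartiles 12.1 and 22.5). The *Unc5b* domain had 54.5% GC and 20.3 CpG per kb, with a GC content above 91.9% of them. The comparison was not matched for width, and the domains are far wider than 8 kb.

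Within each domain, CpG was concentrated at the promoter. In bins of 1 kb counted from the most upstream TSS, bins with at least 50% GC and an observed over expected CpG ratio of at least 0.6 numbered 1 of 69 in *Mical2*, 2 of 68 in *Shb* and 1 of 42 in *Unc5b*. At *Mical2* this was the bin from 0 to 1 kb, with 58.0 CpG per kb against a median bin of 9. At *Unc5b* it was also the bin from 0 to 1 kb, with 109 CpG per kb against a median of 17. At *Shb* the bins from 1 to 2 kb and from 2 to 3 kb had 95.0 and 130 CpG per kb against a median of 13, and they hold the coding starts at 1642 and 2140 bp. The internal starts of *Mical2* at 45.4 kb and of *Shb* at 42.7 kb were in no such bin. All but 1 or 2 bins of each domain were therefore outside sequence of this kind.

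**Figure D5:**
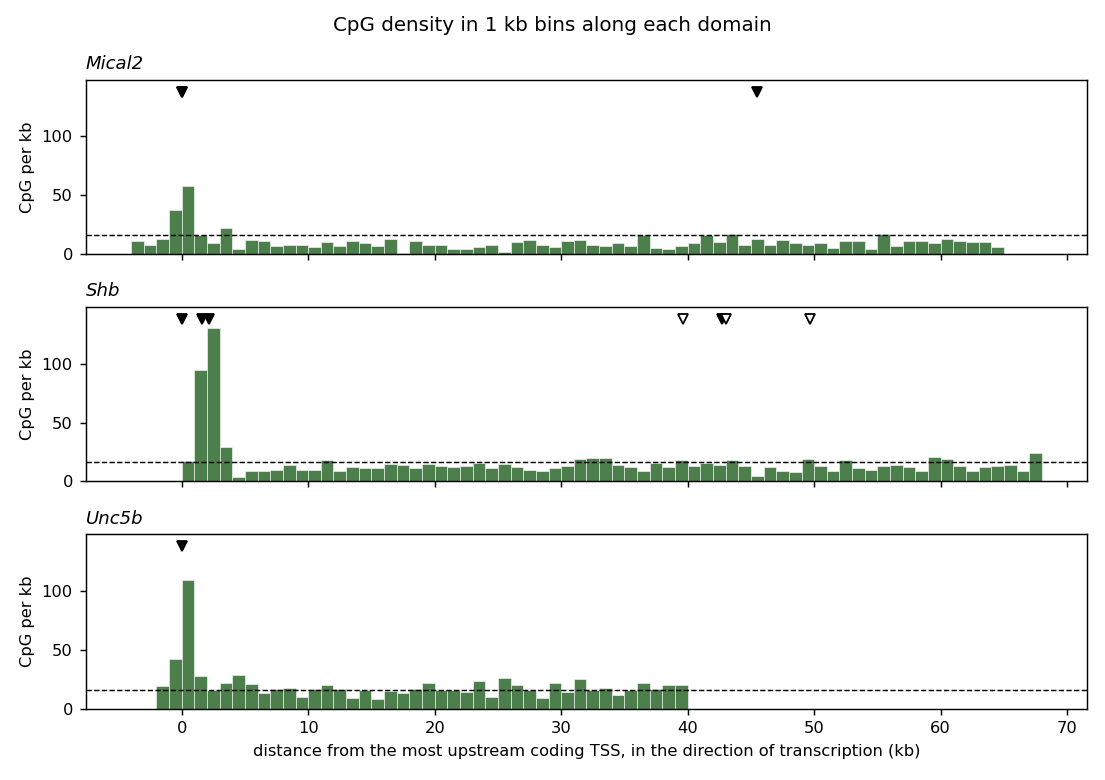
CpG dinucleotides per kb in 1 kb bins (green bars) along the domains at *Mical2*, *Shb* and *Unc5b*, against distance in kb from the most upstream coding TSS. Triangles mark TSS, filled for coding transcripts, and the dashed line is the median of all regions of at least 8 kb (16.2 CpG per kb). The tallest bars, 58.0, 130 and 109 CpG per kb, stand within 3 kb of that TSS.

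Motif density in the domains was compared with the quartiles of regions of at least 8 kb. CATTCC occurred 0.657, 0.712 and 0.761 times per kb in *Mical2*, *Shb* and *Unc5b*, above the median of 0.576 in all 3 and above the upper quartile of 0.748 in *Unc5b* only. AGATAA occurred 0.486, 0.305 and 0.262 times per kb, below the median of 0.541 in all 3 and below the lower quartile of 0.366 in *Shb* and *Unc5b*. CACGTG occurred at 16 sites in the *Mical2* domain, or 0.229 per kb, just under the upper quartile of 0.235, and at 0.0476 per kb in *Unc5b*, below the lower quartile of 0.0787. The CArG box was found at 4 sites in the *Mical2* domain and at 1 each in *Shb* and *Unc5b*. These were 0.0571, 0.0145 and 0.0238 per kb, all above the median of 0 and below the upper quartile of 0.0992. At *Shb* and *Unc5b*, 1 site in a domain of that width falls between these values in any case. GGGCGG was below the lower quartile of 0.168 in *Mical2*, below the median of 0.411 in *Shb* and above that median in *Unc5b*. TATAAA and ACGTG were above their medians of 0.569 and 0.721 in *Mical2* and below them in *Shb* and *Unc5b*. The densities were not matched for base composition or width, and a match is not evidence of binding.

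Genes that work with the 3 were examined in the same way, by lists of the MICAL family, SRF and actin, UNC5 receptors and netrins, and SHB with its receptor partners. *Mical2*, *Shb* and *Unc5b*, which were chosen for it, had a region in both decreased lists and no other gene of these 4 lists did, where 1.15% of all protein-coding loci had one. In the MICAL family, the selected *Mical2* included, all 6 genes had an H3K4me2-listed region in their locus (46.9% of all protein-coding loci) and 2 an H3K4me1-listed one (15.2%). The locus includes the 50 kb windows, and at *Mical3*, *Micall1* and *Micalcl* no H3K4me2-listed region lay over a GENCODE vM1 TSS of the gene. The upstream RefSeq start of *Mical3* did lie in an H3K4me2-listed region. After that of *Mical2*, the widest listed region was 10860 bp, over the TSS of *Micall2*, a MICAL-like protein of vesicle traffic and cell junctions. The widest at *Mical3* was 10040 bp.

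Of 11 SRF and actin genes, 5 had an H3K4me1-listed region (15.2% of all protein-coding loci) and 6 an H3K4me2-listed one (46.9%, so that this count was near the background), and 3 had neither. Those with none were *Acta2*, *Tagln* and *Ctgf*. The widest listed regions were 14660 bp, over a TSS of *Vcl*, which encodes the adhesion protein vinculin, 13120 bp, over the TSS of *Cyr61*, a matricellular protein, and 7520 bp at *Mkl1*, which encodes MRTF-A. The first and second were in the H3K4me2 list and the third in the H3K4me1 list. *Srf* had 1 H3K4me1-listed region of 3880 bp, away from its TSS.

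Of 13 UNC5 and netrin genes, the selected *Unc5b* included, 3 had an H3K4me1-listed and 7 an H3K4me2-listed region, and 5 had neither. Both counts were near the background of 15.2% and 46.9% of all protein-coding loci. Beside *Unc5b*, the widest were 8540 bp over a TSS of *Flrt2*, a ligand of UNC5 receptors required in the epicardium, and 6040 bp near *Ntn3*, both in the H3K4me2 list. *Ntn1*, the founding netrin, had 2 H3K4me1-listed regions, up to 3080 bp wide. *Unc5a* and *Unc5c* had none, and *Unc5d* had 1 of 80 bp.

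Of 15 genes of the SHB list, the selected *Shb* included, 3 had an H3K4me1-listed and 9 an H3K4me2-listed region, and 6 had neither, beside 15.2% and 46.9% of all protein-coding loci. Beside *Shb*, the widest were 11860 bp in the window around *Crk* but outside its body, 7640 bp over a TSS of *Ptk2* (focal adhesion kinase) and 6120 bp over a TSS of *Grb2*, all in the H3K4me2 list. Of the receptor genes, *Kdr*, *Pdgfra* and *Pdgfrb* had no listed region, *Flt1* had 2 H3K4me2-listed ones, and *Fgfr1* had 1 in the H3K4me1 list and 3 in the H3K4me2 list. Loci differ in length, and the shares over all protein-coding records are not matched for it.

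The tissue label was checked by whether a marker gene had a TSS in a merged region. This was so for 8 of 8 heart muscle, 5 of 5 endothelial, 3 of 3 epicardial and 4 of 4 red blood cell genes, but also for 5 of 6 genes of other organs, all but *Alb*, and for 70.4% of protein-coding records. The merged list therefore does not separate tissues or cell types, and the cells that carried the domains were not determined.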

How the data were processed

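Groups were taken from the sample titles. Per the submitters' processing notes and the labels, the reads were handled with CASAVA 1.8.2, FastQC, Bowtie, Bowtie2 and SAMtools on mm9. The authors merged the peaks of the 3 marks into 1 list, which the labels attach to the control libraries. The list itself names no sample and pools the libraries of both genotypes, so its regions and widths are not those of control hearts alone. The authors deposited it with a list of regions decreased in mutants for H3K4me1 and one for H3K4me2. The peak caller, its settings and the test behind the decreases are not given in the sources used here.

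Each list holds a chromosome, start and end. Every decreased region had an identical merged region. Starts were converted to 1-based positions. Regions were assigned to a gene by an overlap of at least 1 bp with its body or the 50 kb either side of a GENCODE vM1 TSS, on NCBIM37 sequence. Python 3.11.15, numpy 2.4.6 and matplotlib 3.10.9 were used, and the interval functions were tested on simulated data. Promoters were the 250 bases before the most upstream coding TSS.

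Genes named are the 6 members, coding genes in a domain, pathway genes in both lists or with the 3 widest listed regions of their list, the 5 widest merged regions and the regions ranked 4 and 5 in both lists, of which 1 is not reported here. *Micall1*, *Micalcl*, *Acta2*, *Tagln*, *Ctgf*, *Srf*, *Ntn1*, *Unc5c*, *Unc5d*, *Kdr*, *Pdgfra*, *Pdgfrb*, *Flt1*, *Fgfr1*, *Cd164*, *Bid* and the genes beyond 50 kb were named after their values were seen. The members and lists were chosen with earlier results of these data known. No test was run, since no value per library was used, and replicate spread could not be measured.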

Additional observations from a re-analysis of the deposited data

How the results depend on the processing

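With windows of 5 kb, 100 kb or the gene body alone, or with regions of at least 500 bp only, the loci of *Mical2*, *Shb* and *Unc5b* held 41, 137, 38 and 47 regions in place of 81. With 100 kb they held 10 H3K4me1-listed and 6 H3K4me2-listed regions in place of 5 and 3. The paralogue loci held 1 H3K4me2-listed region with 5 kb and 1 with the body alone, in place of 5. Counts in both lists, 3 and 0, were the same under every window and width limit tried. None of these settings could have removed the 3, since each domain covers a TSS of its gene and is far wider than 500 bp. That count is therefore no check on the choice. The number in both lists over all regions, 172, was the same under either overlap rule, since decreased regions copy merged ones.

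Ranks by width depended on how regions were split. Joined across gaps of up to 1, 2 and 5 kb, the domain at *Mical2* ranked 2, 5 and 8 (98.1, 149 and 271 kb), at *Shb* 6, 17 and 313 (81.0, 104 and 121 kb) and at *Unc5b* 56, 145 and 1124 (43.5, 57.0 and 70.9 kb). The widest joined region up to 1 kb was 109 kb, at *Zmiz1*. Of the TSS positions in the *Shb* domain 4 in place of 7 were coding.

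With windows of 5 kb, 100 kb and the body alone, the shares of protein-coding loci were 6.33%, 25.0% and 5.80% for H3K4me1, 25.6%, 61.0% and 24.1% for H3K4me2 and 0.474%, 1.92% and 0.447% for both. No paired analysis was possible because the lists hold no value per library. Absence from a decreased list does not show that a mark was kept.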

Other observations

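When the window around each TSS was widened from 50 to 100 kb, 5 further H3K4me1-listed and 3 H3K4me2-listed regions fell in the 3 loci. Upstream of *Mical2*, the H3K4me1 list held regions of 10960 and 13000 bp over *Dkk3*, a secreted protein of the Dickkopf family, and downstream the H3K4me2 list held regions of 1760 and 60 bp. Downstream of *Shb*, an H3K4me2-listed region of 8880 bp, chr4:45414946-45423825, covered the TSS of *Mcart1*. Upstream of *Unc5b*, H3K4me1-listed regions of 5540 and 7120 bp overlapped *Pldi*, and another of 60 bp overlapped no coding gene. The nearest regions outside each locus, whose edge is the 50 kb limit or, at the 3′ side of *Shb* and *Unc5b*, the end of the gene, lay 1633 to 6704 bp beyond that edge and, like those just inside, were in neither list.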
